A study of Mus musculus with 9 samples.

Results

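Rings of 2 to 5 exons are circular RNAs (circRNAs) whose deposited annotation lists 2, 3, 4 or 5 exons of a single gene. They were taken from a table of circRNAs in mouse liver by that annotation alone. They numbered 7728 of 11312 circRNAs (68.3%): 3956 were listed with 2 exons, 2642 with 3, 917 with 4 and 213 with 5. For comparison, 2723 circRNAs were listed with 1 exon and 55 with 6 or more exons of 1 gene.

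The tissue was liver of wild-type mice of the C57 BL6 strain, aged 8 weeks and weighing 20 g on average. Controls received saline, the APAP group received 500 mg/kg acetaminophen (APAP), and the dmPGE2+APAP group received 300 µg/kg dmPGE2, a stable analogue of prostaglandin E2, 1 hour before the same APAP dose, and tissue was taken 6 hours after APAP. There were 3 libraries per group, made from 1 µg of total liver RNA without ribosomal RNA. No label says which animal a library came from, so each p-value reflects only the spread between these samples, which may be technical.

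A circRNA forms when the splicing machinery joins the end of a downstream exon to the start of an upstream exon, a step called back-splicing. The closed ring has no free ends and is not open to exonucleases, which is why rings can outlast the linear messenger RNA of the same gene. Only reads across the back-splice junction identify a ring. The exons between its ends are not read directly from that junction.

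Junctions of 9 rings are shown because the results below turn on these rings. Each line gives the last 15 bases of the ring's last exon in lower case, followed by the first 15 bases of its first exon in capitals, 5′ to 3′. The place where lower case meets capitals is the back-splice junction. Exons were read from GENCODE M21 transcripts on GRCm38 (mm10). The first 4 lines are the rings that passed a test between groups, the next 4 are abundant rings of 2, 3, 4 and 5 listed exons, and the last is a short ring given whole further on.
Epha2 mmu_circ_0001290: aggatgcctgccgagTTGTTTTGTTGGACT
Trpc6 mmu_circ_0001743: cttgacaaaaatcagTTTGTGGCTCATCCA
Arid1a mmu_circ_0001283: ccctccagcttgcctTCATCCAGTCCAATG
Scp2 novel_circ_0009634: tgcttcccaattcagCTCCTTCAGGACGCA
Alg12 mmu_circ_0000635: aggctgcacctatatGGCTGACGGTTGCTG
Rnf169 mmu_circ_0001605: agcgttcctggcaggAGTTTATATTCAGAA
Rmdn2 novel_circ_0005331: acactgccatctgtgGTATATTACAGCTAA
Tmem56 novel_circ_0009041: tactactttgtattgGCAATGGTCTATGAC
Glt1d1 novel_circ_0010888: gctcaggtgcagtggGTCACAGCATTCCTT

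A whole ring shows how small these molecules can be. The Glt1d1 ring novel_circ_0010888 (chr5:127650683-127657138, plus strand, GRCm38) joins exons 3 and 4 of a 12-exon transcript, 106 and 52 bases long, within the coding sequence. It was chosen after its values were seen, as the shortest tested 2-exon ring that matches a transcript within coding sequence. Its 158 bases are printed with exon 3 in capitals and exon 4 in lower case, and the last base joins back to the first.
Glt1d1 novel_circ_0010888: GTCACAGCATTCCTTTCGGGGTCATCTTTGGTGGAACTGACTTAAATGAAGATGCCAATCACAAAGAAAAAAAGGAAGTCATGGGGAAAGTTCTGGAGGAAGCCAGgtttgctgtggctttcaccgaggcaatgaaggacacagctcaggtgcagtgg
It was read in 7 of 9 libraries, with 8, 23 and 0 reads among the controls, 9, 11 and 0 in APAP, and 8, 5 and 8 in dmPGE2+APAP. A second ring of the same gene, novel_circ_0010889, starts at the same base, runs to 127664708 and is listed with 5 exons. At 316 bases it was the shortest tested ring of 5 exons.

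The number of back-splice reads per library limits all that follows. The libraries held 154449, 129971 and 4362 back-splice reads in control 1 to 3, 69268 to 109453 in APAP and 99102 to 120531 in dmPGE2+APAP. Control 3 stands far below the rest, and the main results that rest on it are given with and without it. It also differed in circular share, defined below, at 2.89% against 48.7% to 59.4% in the other libraries over the same 318 rings. Control 3 thus differed in more than its number of back-splice reads, and the reason was not tested. Values of gene lists and cell type markers include control 3. No library holds a count of 1, the smallest above 0 being 2, and a listed 0 may thus hide a single read. Levels are given as CPM, back-splice reads per 1000000 of the library's circRNA reads, a scale with no length term. CPM is not adjusted by the TMM scaling factor of the group tests, which was 2.09 in control 3 and 0.87 to 1.05 elsewhere. The control columns carry a code that no label explains, and they were taken as controls because no other group was left.

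The label of the rings was checked against the annotation first. Their listed exons reach both ends of the ring in 6475 of 7728 (83.8%), and both ends lie at annotated exon ends in 7428 (96.1%). The listed exons match a GENCODE M21 transcript exon for exon in 3079 rings (39.8%). That share was 32.9% of rings listed with 2 exons, 44.6% with 3, 50.9% with 4 and 62.0% with 5.

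In many rings the list holds fewer exons than the annotation places between the ends. Both ends lie in 1 transcript in 7352 rings, and 3953 of these (53.8%) enclose more annotated exons than are listed. The share fell with the listed number, from 63.5% at 2 exons to 46.6%, 38.8% and 29.9% at 3, 4 and 5. It was 89.9% in rings listed with 1 exon. The most extreme ring enclosed 27 annotated exons, and 181 rings enclosed fewer than listed. The rings are therefore called here by the number of exons listed, which is not shown to be the number in the molecule.

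The Trpc6 ring is an example, with 2 listed exons of 240 bases over exons 4 to 9 of its transcript. The Zc3h14 ring novel_circ_0002440 is listed with 2 exons over 8 annotated ones, and the Tnrc6b ring novel_circ_0004073 with 4 over 11. Zc3h14 encodes a poly(A)-binding protein and Tnrc6b a partner of the Argonaute proteins. Per the labels' protocol, RNA was broken to 250 to 300 bp and cDNA of about 350 to 400 bp was kept. The part of fragment size in the listed exons was not tested.

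Rings were short by listed exons and longer by annotation. The median listed length was 324 bases over all rings, with 95% of rings at or under 502 and the longest at 1100. By exon number it was 279, 348, 419 and 483 bases at 2, 3, 4 and 5 exons. By annotated exons between the ends the medians were 477, 433, 479 and 529 bases, so the order by exon number was nearly lost. Listed length per exon fell from 140 bases at 2 exons to 116, 105 and 96.6 at 3, 4 and 5.

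**Figure D1:**
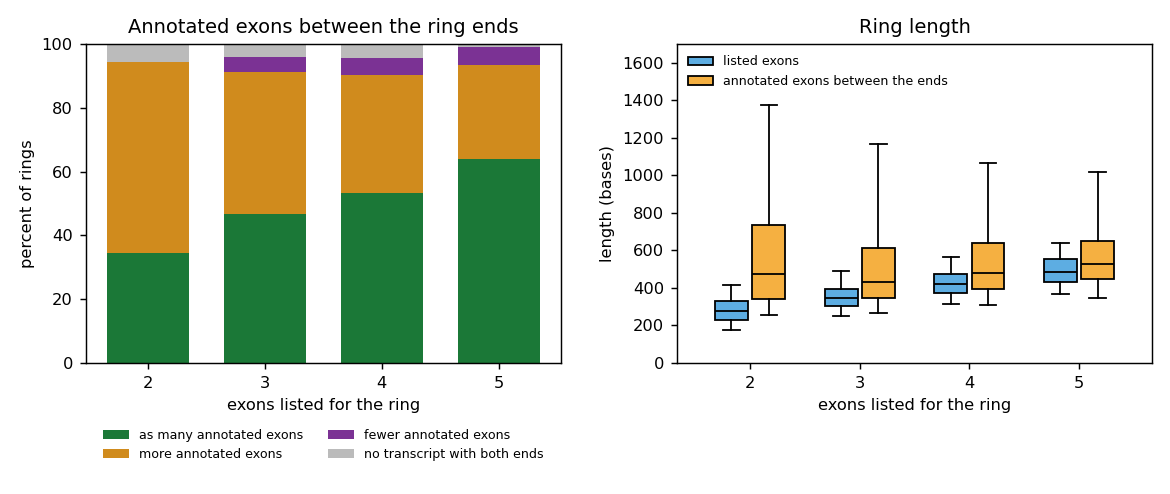
Left, percent of rings (y axis) whose ends enclose as many, more or fewer annotated exons than listed, or that lie in no single transcript, by listed exon number (x axis). Right, length in bases of listed exons (blue) and of annotated exons between the ends (orange), with boxes from the 25th to the 75th percentile, the median as a line and whiskers at the 5th and 95th percentiles; the listed medians climb from 279 to 483 bases while the annotated medians stay between 433 and 529.

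Genome span, introns included, went the same way as listed length. Its median was 8185 bases over all rings, and 7050, 8002, 10922 and 16100 bases at 2, 3, 4 and 5 exons. The shortest and longest tested rings of 2 exons were Mllt10 novel_circ_0008265 at 78 bases and Dnajc5 novel_circ_0008262 at 1100. Mllt10 encodes a chromatin cofactor and Dnajc5 a chaperone of secretory vesicles. At 3 exons they were Pecam1 novel_circ_0000766 at 156 bases and Foxn3 novel_circ_0002449 at 735, an endothelial adhesion molecule and a forkhead transcription factor. At 4 exons they were Sash1 novel_circ_0000586 at 244 and Snrk novel_circ_0014232 at 985, a scaffold protein and a kinase. Ttc39c novel_circ_0005475, at 817 bases, was the longest of 5 exons.

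Several short rings again had more annotated exons than listed. The Mllt10 ring spans 4, the Pecam1 ring 6 and the Sash1 ring 6 annotated exons. The Snrk ring had only 2 annotated exons for 4 listed. Over all rings, 37.0% had a listed length that is a multiple of 3, between 33.8% and 37.9% at each exon number.

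Few rings held the first or last exon of a gene. Of the 7352 rings placed in a transcript, 12 held its first exon and 12 its last. The start lay at exon 2 in 1930 (26.3%). Were all internal starts of the same transcripts equally used, 14.2% would begin there, so exon 2 was used more often than an even spread gives. The share was 24.9%, 27.1%, 28.7% and 29.4% at 2, 3, 4 and 5 exons, and 28.7% in rings of 1 exon. The ring lay wholly within coding sequence in 81.2%, and 99.4% of rings had a protein-coding host.

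The rings came from 3107 host genes. Of these, 1467 (47.2%) gave a single ring, 408 gave 5 or more and 73 gave 10 or more. Rings of all 4 exon numbers came from 68 hosts, and 4462 rings (57.7%) shared a start or an end with another ring of 2 to 5 exons, so rings are not independent of each other. Vwa8, a mitochondrial ATPase-domain protein, led with 30 rings: 12 of 2, 8 of 3, 7 of 4 and 3 of 5 exons. Cps1, the first enzyme of the urea cycle, gave 28 rings, of which 5 entered the test. Ehmt1, a histone methyltransferase, gave 25, Itpr2, a calcium release channel of hepatocytes, gave 20, and Rabep1, an endosome fusion factor, gave 19. Many rings did not mean many reads: the 28 Cps1 rings held 506 reads over the 9 libraries, against 6603 for the 19 Rabep1 rings.

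Host genes were grouped by lists, described by counts with no test of the list. Of 30 hepatocyte markers, 17 were hosts, with 73 rings that held 0.701% of all reads in rings of 2 to 5 exons. Among those without a ring were Ttr, Fga, Fgb, Arg1 and Cyp2e1. Kupffer cell and macrophage markers gave 2 of 16 hosts (Adgre1 and Mertk, 8 rings), and sinusoidal endothelial markers 8 of 16 (21 rings, among them Mrc1, F8 and Pecam1). Stellate cell and fibroblast markers gave 3 of 15 hosts, cholangiocyte markers 1 of 10 (Pkhd1) and neutrophil and lymphocyte markers 1 of 16. In bulk tissue, fewer cells of a type and less RNA per cell cannot be told apart.

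The share of hosts differed between lists, which were chosen with earlier results of these data known. Cytoskeleton, adhesion and small GTPase regulators were hosts in 50 of 62, ubiquitin system genes in 48 of 60, chromatin regulators in 46 of 61 and kinases in 47 of 70. Drug metabolism genes were hosts in 17 of 50, NRF2, glutathione and stress genes in 11 of 36, and inflammation and prostaglandin signalling genes in 18 of 47. Between them lay lipid and bile acid metabolism at 43 of 65, amino acid and carbohydrate metabolism at 39 of 62, ion channels and membrane transporters at 31 of 51, and splicing and circRNA handling factors at 23 of 46. Genes widely reported as circRNA hosts numbered 46 of 60, with 243 rings and 7.99% of the reads. Gene length and expression level differ between lists, and their part was not tested.

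Most rings were rare, and rings listed with more exons were read in more libraries. Of the 7728 rings, 2619 (33.9%) had reads in 1 library only and 1293 (16.7%) in 8 or 9 libraries. The share in 8 or 9 libraries rose from 10.1% at 2 exons to 18.4%, 32.0% and 54.0% at 3, 4 and 5, against 5.29% at 1 exon and 67.3% at 6 or more. A filter of at least 5 reads in at least 3 libraries kept 3359 rings (43.5%): 1326 of 2, 1274 of 3, 591 of 4 and 168 of 5 exons. Rings that carry an mmu_circ identifier, the others being named novel_circ, made up 5.97% at 2 exons and 23.5% at 5.

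Abundance climbed with exon number inside each library. The median CPM of the rings with reads in a library, over the 9 libraries, had a lowest, median and highest value of 64.4, 76.9 and 688 at 2 exons, 82.8, 92.3 and 688 at 3, 110, 123 and 688 at 4, and 178, 236 and 1146 at 5. The value of 688 is control 3, where it stands for 3 reads and was shared by 2, 3 and 4 exons. Elsewhere the highest values were 130, 144, 188 and 281.

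The within-library difference in median log2 CPM was 0.27 ± 0.12 from 2 to 3 exons, 0.38 ± 0.15 from 3 to 4 and 0.84 ± 0.17 from 4 to 5 (mean ± SD, n = 9 libraries). It was above 0 in 8, 8 and 9 libraries, with 0 in control 3 for the first 2 steps. In an exact paired sign-flip permutation test over libraries, two-sided and adjusted over 5 pairs of classes, each step gave p = 0.0078. Against 1 exon the rings of 2 to 5 exons were higher by 0.40 ± 0.19 (p = 0.0078, n = 9 libraries, same exact test). Against 6 or more exons the difference was -2.12 ± 0.44 (p = 0.0078, n = 9, same exact test). Libraries share many rings, so these tests speak of the libraries and not of an independent set of rings.

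The steps from 2 to 5 exons held in rings that match a transcript exon for exon, at 0.21, 0.27 and 0.75 (adjusted exact permutation p = 0.0098 each). The comparison with 1 exon did not: among matching rings it turned to -0.31 (adjusted exact permutation p = 0.0156).

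**Figure D2:**
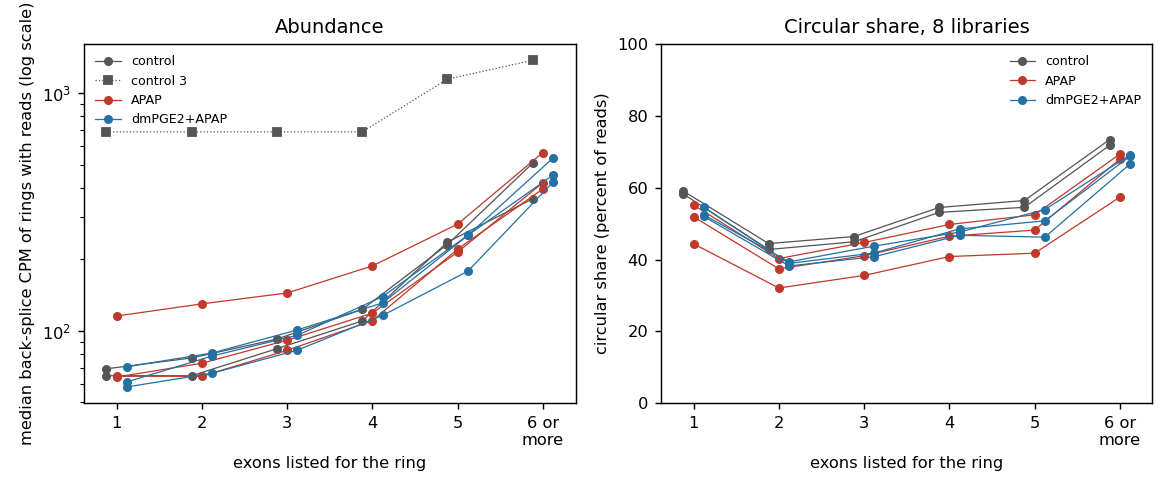
Left, median CPM of rings with reads on a log scale, right, circular share in percent over rings usable in the 8 libraries other than control 3, each by listed exon number (x axis). Each line is 1 library, coloured by group, with control 3 dotted on the left; CPM climbs from 2 to 5 exons in the 8 libraries, and the circular share is lowest at 2 exons.

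The most abundant rings of each exon number were read in all libraries or in all but control 3. At 2 exons Alg12 mmu_circ_0000635 (chr15:88811297-88812159, exons 6 to 7) led, from a mannosyltransferase of N-glycan assembly. Its reads were 952, 748 and 31 in control, 513, 641 and 498 in APAP, and 587, 608 and 701 in dmPGE2+APAP. In CPM it ran from 4721 to 7190 with groups that overlap. Hebp1, a heme-binding protein, followed at a mean of 4018 CPM and Rad52, a DNA repair factor, at 3684, the latter listed at 0 in control 3.

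At 3 exons Rnf169 mmu_circ_0001605 (chr7:99935162-99955540, exons 2 to 4) held 21323 CPM on average, from a ubiquitin ligase of the DNA damage response. Control 1 to 3 gave it 3093, 2761 and 60 reads, with 2333, 2632 and 1668 in APAP, and 2852, 2156 and 2510 in dmPGE2+APAP. Its 13755 CPM in control 3 was the lowest and 24080 in APAP 3 the highest. Next came Mug-ps1 at 5816 CPM, a murinoglobulin pseudogene whose reads could be shared with near-identical genes, and Adk, adenosine kinase, at 5589 CPM.

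At 4 listed exons Rmdn2 novel_circ_0005331 (chr17:79650302-79659473, annotated exons 3 to 5), from a regulator of microtubule dynamics, had a mean of 8502 CPM. Gramd1c followed at 6367 and Snrk at 4721. At 5 exons Ttc39c novel_circ_0005475 stood at 8642 CPM, from 7938 to 9757 over the 9 libraries. It was close to even between libraries, control 3 included. Tmem56 novel_circ_0009041 (chr3:121228310-121235764, exons 4 to 8) had 7599 CPM and Bckdhb, a subunit of branched-chain keto acid dehydrogenase, 6045.

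The circular share was computed per ring as back-splice reads over the sum of back-splice reads and the non-junction reads listed at the same sites. The level depends on this definition, and an alternative that counts each back-splice read 2 times is given below for the groups. The non-junction lists of 1326 rings (17.2%) could not be split by library. By listed exons that was 15.4%, 17.9%, 21.7% and 20.2% of rings at 2, 3, 4 and 5. A list was set aside where its number of entries did not match the libraries or where all entries after the first had 3 digits, the form in which a list merges into 1 number. How the circular share of these rings compares with that of the usable rings was not tested. Among 970 rings with usable values in at least 8 libraries the median share was 37.4%, with 328 rings above 50%, 24 above 90% and 43 below 10%. By exon number the median was 35.0% at 2 exons (298 rings), 35.9% at 3 (372), 39.9% at 4 (213) and 46.7% at 5 (87).

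Single rings spanned nearly the whole scale. Among the highest were Sh2d4b novel_circ_0003413 at 100% (2 exons, median over libraries), Zfp827 mmu_circ_0001698 at 100% (3), Hdgfl3 mmu_circ_0001589 at 96.3% (4) and Lrch3 mmu_circ_0000681 at 93.3% (5). The lowest were Scap mmu_circ_0001846 at 2.52% (2), Gigyf2 novel_circ_0007581 at 2.41% (3), Smoc1 novel_circ_0002321 at 3.79% (4) and Dtnbp1 novel_circ_0002714 at 4.62% (5). Scap escorts the SREBP factors of sterol synthesis, and Dtnbp1 is a subunit of a lysosome biogenesis complex. Of the 12 most abundant rings, 3 of each exon number, 7 had no usable share. Among the others Alg12 had a median of 95.9%, Rad52 97.3%, Gramd1c 84.2% and Rmdn2 77.8%. In control 3 these shares were far lower, at 53.5% for Alg12, 27.4% for Gramd1c and 16.0% for Rmdn2.

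Summed over the 318 rings usable in all 9 libraries, the circular share had a lowest, median and highest value of 2.19%, 48.8% and 53.8% at 2 exons. At 3 exons these were 2.75%, 51.6% and 54.8%, at 4 exons 3.83%, 59.3% and 65.5%, and at 5 exons 3.08%, 60.5% and 66.2%. The lowest value was control 3 each time. The level depends on the rings used: over every usable ring of each library the medians over libraries were 11.5%, 20.4%, 33.8% and 44.8% at 2, 3, 4 and 5 exons, and 18.5% against 54.6% for all rings of 2 to 5 exons. The order of the exon numbers was the same. In the 318 rings the next lowest values were 43.2%, 47.1%, 55.3% and 49.2%.

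Within libraries the share rose by 2.58 ± 1.76 percentage points from 2 to 3 exons and by 7.38 ± 3.04 from 3 to 4, in 9 of 9 libraries each (mean ± SD, exact paired permutation p adjusted over 5 pairs = 0.0049). From 4 to 5 exons the difference was -0.785 ± 2.92 (adjusted exact permutation p = 0.4375, n = 9). Without control 3, over 930 rings, that step was 2.08 ± 1.95, above 0 in 7 of 8 libraries (adjusted exact permutation p = 0.0156). Rings of 2 to 5 exons stood 7.12 ± 2.65 points below rings of 1 exon (35 usable rings). They stood 15.4 ± 5.21 points below rings of 6 or more (18 usable rings). Each difference held in 9 of 9 libraries (adjusted exact permutation p = 0.0049 each). Before adjustment that is p = 0.0039 in the exact permutation test, the smallest that 9 libraries allow. The same rings were used in each library, so these tests speak of the libraries and not of an independent set of rings. The differences from rings of 1 exon and of 6 or more both depend on which rings are used. With every usable ring of each library the first turned to 7.39 points above rings of 1 exon. Among rings that match a transcript the second turned to 3.79 points above rings of 6 or more, which then numbered 7.

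The circular share of the treatment groups depended on whether control 3 was used. Over the 318 rings it was 59.4%, 58.4% and 2.89% in control, 53.7%, 56.4% and 48.7% in APAP, and 54.6%, 53.1% and 55.6% in dmPGE2+APAP, and an exact permutation test across all groups gave p = 0.989. Without control 3, over 930 rings, both controls stood at 49.0% and 47.4%, APAP at 41.2% ± 4.58 and dmPGE2+APAP at 43.3% ± 1.18 (SD, n = 3). Both controls then lay above each treated library, at p = 0.129 by the same exact permutation test. The gap between control and dmPGE2+APAP was larger than the SD of either, and its exact permutation p of 0.1 is the smallest that 2 against 3 libraries allow. Over the 318 rings, counting each back-splice read 2 times gave 74.5%, 73.7% and 5.61% in control. It gave 69.9%, 72.1% and 65.5% in APAP, and 70.7%, 69.4% and 71.5% in dmPGE2+APAP (exact permutation p = 0.989).

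The share of a library's back-splice reads that fell in these rings was next compared between groups, to see whether the exon number classes shift. All rings of 2 to 5 exons held 75.9%, 76.1% and 71.4% in control 1 to 3, 76.3%, 77.2% and 78.2% in APAP, and 77.6%, 76.8% and 77.6% in dmPGE2+APAP. Every control library lay below every treated library. The exact permutation test over all arrangements of the libraries into 3 groups gave p = 0.0464. It passed without control 1 or control 2, but not without any 1 of the other libraries: without control 3 the exact permutation p was 0.214, and without a treated library 0.0929 to 0.161. As a percent of exonic reads alone the groups stood at 80.6%, 80.9% and 81.0% (exact permutation p = 0.611).

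Rings listed with 2 exons held a smaller share of the back-splice reads in control. They took 23.2%, 22.6% and 18.02% in control, 24.3%, 24.3% and 24.2% in APAP, and 24.0%, 23.6% and 23.7% in dmPGE2+APAP. The 3 groups did not overlap, with APAP highest and control lowest (exact permutation p adjusted over 4 exon numbers = 0.0071, and 0.0143 without control 3). Leaving out any 1 treated library gave adjusted p from 0.105 to 0.143. In exact permutation tests each pair of groups gave p = 0.1, the smallest that 3 against 3 libraries allow. In circRNAs with reads in all 8 other libraries, where rare rings play no part, the order of control and treated libraries held: 20.6%, 19.8% and 16.2%, then 21.3% to 22.3% in APAP and 20.9% to 21.5% in dmPGE2+APAP (adjusted exact permutation p = 0.0095).

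Rings listed with 4 exons went the other way. They took 16.7%, 16.95% and 17.4% in control, 15.9%, 15.9% and 16.3% in APAP, and 16.5%, 16.6% and 16.4% in dmPGE2+APAP, again with no overlap between groups (adjusted exact permutation p = 0.0071, and 0.0143 without control 3). Without dmPGE2+APAP 1 or 2 it was 0.0571. A single ring held much of the difference. Rmdn2 novel_circ_0005331 held 9531, 9425 and 15589 CPM in control, 5411, 6770 and 5645 in APAP, and 6048, 9445 and 8650 in dmPGE2+APAP. Without it the 4-exon difference between APAP and control shrank from -1.004 to -0.54 percentage points (adjusted exact permutation p = 0.0619). Counted by annotated exons, the 4-exon class did not differ (adjusted exact permutation p = 0.593), whereas the 2-exon class did (adjusted p = 0.0286, exact permutation). That count also moves the Rmdn2 ring, annotated over exons 3 to 5, out of the 4-exon class.

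Rings listed with 3 exons took 27.1%, 27.2% and 24.0% in control, 27.7%, 28.2% and 28.7% in APAP, and 28.2%, 28.0% and 28.2% in dmPGE2+APAP (adjusted exact permutation p = 0.0381, and 0.0857 without control 3). Without any 1 treated library that p was 0.105 to 0.143, and without Rnf169 it was 0.0619. Rings of 5 exons took 8.95%, 9.36% and 11.9%, then 8.44% to 9.08% and 8.57% to 9.27%, with overlap (exact permutation p = 0.146, and adjusted 0.0286 without control 1). Counted as a percent of the circRNAs detected, no exon number differed between groups (adjusted exact permutation p = 0.957 for each). Control 1 and 2 held the most back-splice reads, and the part of read number in these shares was not tested.

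**Figure D3:**
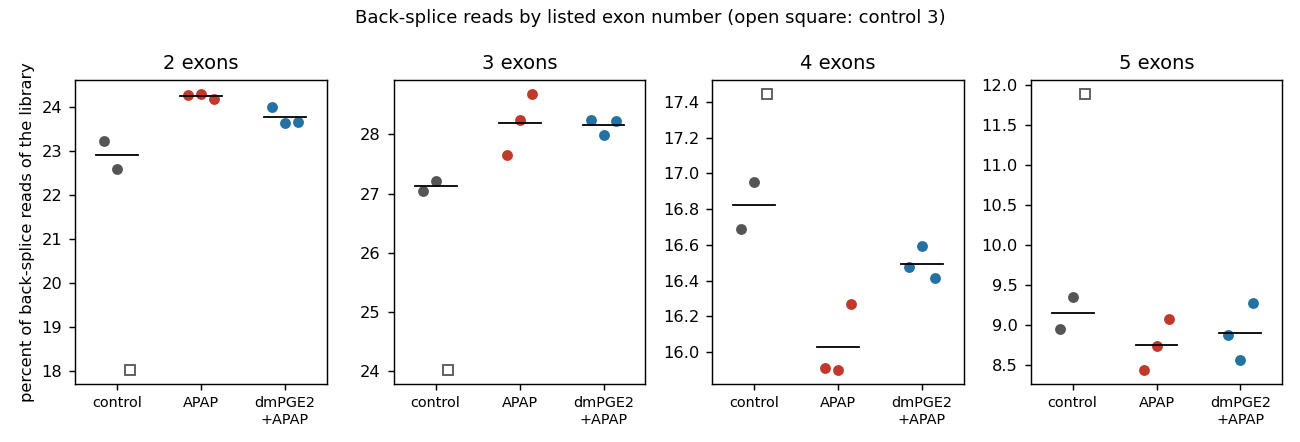
Percent of each library's back-splice reads (y axis, a separate scale per panel that does not start at 0) in rings of 2, 3, 4 and 5 listed exons, by group (x axis). Each point is 1 library, the open square is control 3 and the line is the group mean without it; at 2 exons the control points lie below the treated ones, at 4 exons above the APAP ones.

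APAP was set against control to find rings that differ 6 hours after the acetaminophen dose. Of 3359 tested rings, 4 passed the edgeR quasi-likelihood test at a Benjamini-Hochberg adjusted p under 0.05, beside 0.139% of all 4331 circRNAs tested. In APAP 2 were higher, beside 0.0924% of all circRNAs, and 2 lower, beside 0.0462%. All 4 were listed with 2 exons, as were 1326 of the 3359 tested rings. An unadjusted p under 0.05 was met by 141 rings, beside 5.17% of all circRNAs. The median log2 fold change was 0.16 for the rings and 0.16 for all circRNAs, and without control 3 both were -0.06. Without TMM scaling the medians were 0.09 and 0.10. Fold changes are given as fitted. By exon number the median was 0.18, 0.21, 0.06 and -0.04 at 2, 3, 4 and 5 exons, and -0.05, -0.02, -0.15 and -0.18 without control 3.

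Epha2, a receptor tyrosine kinase for ephrins, gave the clearest rise. Its ring mmu_circ_0001290 (chr4:141306514-141309080, plus strand) joins exons 2 and 3 of 17 in 744 bases, as the junction shown above, and is the host's only ring. Its reads were 10, 16 and 0 in control, 59, 82 and 55 in APAP, and 109, 89 and 115 in dmPGE2+APAP. In CPM these were 62.6 ± 61.6, 695 ± 134 and 935 ± 58.2 (SD, n = 3), with no overlap between any 2 groups. In the fit, dmPGE2+APAP did not pass against APAP, at a log2 fold change of 0.50 (SE 0.45, edgeR unadjusted p = 0.26).

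The Epha2 log2 fold change in APAP against control was 2.91 (SE 0.55, edgeR adjusted p = 0.00023). It was 2.80 without control 3 (edgeR adjusted p = 6.3e-06). Only 2 of 16 alternatives ended the call, limma-voom (adjusted p = 0.1003) and leaving out control 1 (edgeR adjusted p = 0.0779). Non-junction reads at the same sites rose beside it, from 98 and 115 in control 1 and 2 to 543, 413 and 445 in APAP, and stood at 471, 269 and 275 in dmPGE2+APAP. The circular share was thus 9.26% and 12.2% in control, 9.80%, 16.6% and 11% in APAP, and 18.8%, 24.9% and 29.5% in dmPGE2+APAP, highest in the last group. That difference in share was noticed in the data and was not tested.

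Trpc6, a receptor-operated cation channel, rose as well. Its ring mmu_circ_0001743 (chr9:8634047-8658377) was read 0, 6 and 0 times in control, 37, 49 and 29 times in APAP, and 16, 5 and 10 times in dmPGE2+APAP. APAP libraries lay above all others. Neither Trpc6 nor Epha2 could have met the filter of 5 reads in 3 libraries through the control libraries alone. The log2 fold change against control was 4.12 (SE 1.00, edgeR adjusted p = 0.0278), and 4.05 without control 3 (adjusted p = 0.0243). It is the weaker of both rises: it passed in 8 of 16 alternatives, with adjusted p up to 0.391 without control 1. Against APAP, dmPGE2+APAP was lower by a log2 fold change of -2.06 (SE 0.80), which did not pass (edgeR adjusted p = 1.00).

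The 2 rings lower in APAP rest on few libraries. Arid1a, part of the SWI/SNF complex that remodels chromatin, gave the ring mmu_circ_0001283. Control 1 to 3 held 9, 0 and 25 of its reads, APAP 0, 15 and 0, and dmPGE2+APAP 7, 0 and 4. Its 25 reads in control 3 amount to 5731 CPM there. The log2 fold change of -3.59 (edgeR adjusted p = 0.0048) became 0.56 without control 3. Scp2 novel_circ_0009634, from a sterol carrier protein of peroxisomes, had 51, 0 and 0 reads in control, 0 in each APAP library, and 55, 0 and 52 in dmPGE2+APAP (edgeR adjusted p = 0.0059). It was read 51 to 55 times in 3 libraries and listed at 0 in 6. It met the filter on reads only through the 3 libraries that held it. The 16 other Scp2 circRNAs summed to 210, 261 and 2 reads among the controls, 163, 206 and 111 in APAP, and 195, 202 and 211 in dmPGE2+APAP, and 2 of them share an end with it.

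**Figure D4:**
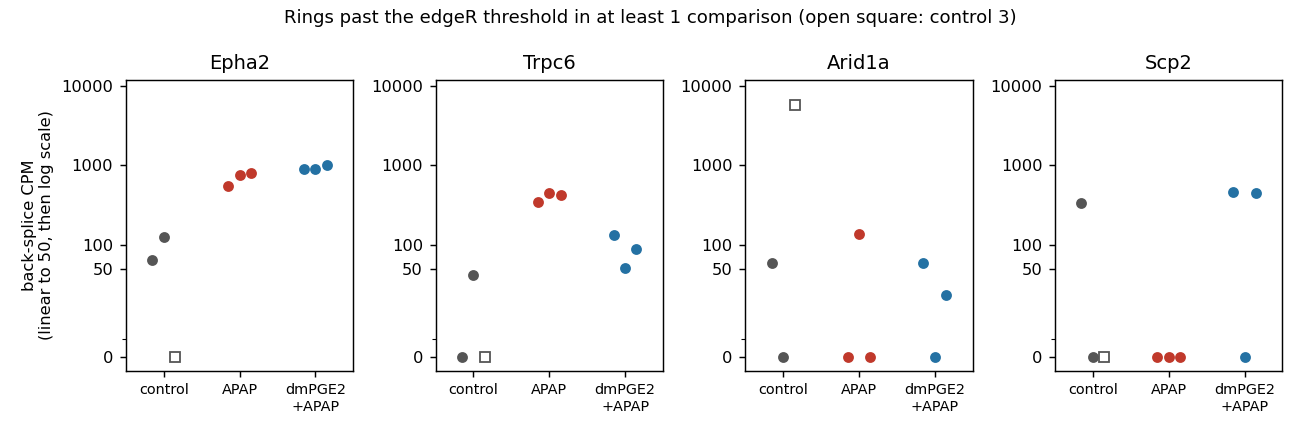
CPM (y axis, linear to 50 and then log) of the 4 rings past the threshold in at least 1 comparison, by group (x axis). Each point is 1 library and the open square is control 3. The Epha2 points do not overlap between the 3 groups, though dmPGE2+APAP did not pass against APAP. Trpc6 is highest in APAP, the Arid1a value in control 3 is 5731 CPM, and Scp2 is at 0 in 6 libraries.

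The 6 rings next in line did not pass the edgeR test (adjusted p from 0.101 to 0.260). Pde5a, a cyclic GMP phosphodiesterase, had 0 reads in each control and 27, 24 and 14 in APAP. Prr5l, a partner of mTOR complex 2, had 0 in control and 12, 12 and 25 in APAP. Klc2, a kinesin light chain, had 0 in control and 16, 15 and 9 in APAP, and Ppp2ca, the catalytic subunit of phosphatase 2A, 0 in control and 28, 10 and 6 in APAP. These rings, at 0 in each control, could meet the filter on reads only through treated libraries. Rsu1, a Ras suppressor, had 0, 8 and 0 in control and 51, 25 and 24 in APAP. Arhgap10 had 0, 10 and 0 in control and 28, 50 and 16 in APAP.

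DESeq2 passed 10 rings in the same comparison, beside 0.323% of all circRNAs tested. They were Epha2, Trpc6, all 6 of those next in line, Pde4d and, at 5 exons, Ehbp1. All 10 were higher in APAP, beside 0.277% of all circRNAs. The limma-voom test passed 1 ring, beside 0.0924% of all circRNAs, and it was Rmdn2, lower in APAP (adjusted p = 0.0143). Without control 3 edgeR passed 4 rings, beside 0.231%: Epha2, Trpc6, Scp2 and, at 4 exons, Rmdn2. Rmdn2 was then lower in APAP by a log2 fold change of -0.76 (SE 0.18, edgeR adjusted p = 0.0363), whereas with control 3 it was -0.61 (SE 0.31, adjusted p = 0.799).

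Mice given dmPGE2 before the overdose were next set against mice given APAP alone. Of 3359 rings, 1 passed edgeR, beside 0.0693% of all circRNAs: Scp2 novel_circ_0009634, with the uneven reads given above (adjusted p = 0.00014). It was higher in dmPGE2+APAP, as 0.0231% of all circRNAs were, while 0 rings were lower, beside 0.0462%. Without control 3 edgeR again passed Scp2 alone, beside 0.0693%. DESeq2 and limma-voom passed 0 rings and 0% of all circRNAs. An unadjusted p under 0.05 was met by 123 rings in edgeR, beside 3.81% of all circRNAs, by 116 in DESeq2, beside 3.67%, and by 213 in limma-voom, beside 6.65%. The median log2 fold change was 0.08 for the rings and 0.08 for all circRNAs.

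Rings next in line had edgeR adjusted p of 0.713 or more. Wwp2, a ubiquitin ligase, had 12, 16 and 18 reads in APAP and 0 in each dmPGE2+APAP library. Prdx6, a peroxiredoxin, had 9, 8 and 14 against 0 in each, and Sfpq, a paraspeckle and splicing protein, 15, 10 and 16 against 0. The opposite pattern held for Fbxo31, an F-box protein, at 0 in APAP and 5, 12 and 53 in dmPGE2+APAP. Sfpq and Fbxo31 also had 0 reads in each control. Each of them met the filter of 5 reads in 3 libraries only through the group where it was read. The 3-exon Nr1h4 ring novel_circ_0000600, from the bile acid receptor FXR, had 0 in APAP and 11, 9 and 24 in dmPGE2+APAP. Its neighbour novel_circ_0000599, listed with 5 exons and closing at the same last exon, exon 8, was far more abundant at 391, 471 and 330 reads in APAP and 511, 456 and 477 in dmPGE2+APAP. Dcaf17 and Stab2 were also uneven, with Stab2 at 0, 7 and 20 reads in APAP and 0 in dmPGE2+APAP.

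The comparison of dmPGE2+APAP with control shares its libraries with both others. Of 3359 rings, 2 passed edgeR, beside 0.115% of all circRNAs: 1 was higher, beside 0.0693%, and 1 lower, beside 0.0462%. DESeq2 passed 1 ring, beside 0.0231%, limma-voom 1, beside 0.0462%, and edgeR without control 3 also 1, beside 0.0924%, and each time it was Epha2. In edgeR 122 rings had an unadjusted p under 0.05, beside 4.34%. Epha2 was higher by a log2 fold change of 3.41 (SE 0.56, edgeR adjusted p = 1.99e-06) and passed in 16 of 16 alternatives. Arid1a was lower by -4.14 (adjusted p = 0.00031), which became 0.040 without control 3. Klc2, with 24, 22 and 8 reads against 0 in each control, did not pass (edgeR adjusted p = 0.140). Neither did Tnrc6b with 23, 10 and 16 reads against 0, nor Snx29, a sorting nexin, with 40, 81 and 88 reads against 36, 35 and 0. Klc2 and Tnrc6b, at 0 in control, could meet the filter on reads only through treated libraries.

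Few rings of the gene lists passed the test, and no list was tested as a whole. In APAP against control, the called rings fell in the lists of kinases and of cytoskeleton regulators (Epha2), ion channels (Trpc6), chromatin regulators and widely reported hosts (Arid1a), and lipid metabolism (Scp2). In the other lists edgeR passed 0 rings in any comparison, with 0 to 6 rings per list at an unadjusted p under 0.05 in APAP against control. DESeq2 passed Pde5a and Pde4d of the inflammation and prostaglandin list there. Drug metabolism rings had a median log2 fold change of -0.50 in APAP against control over 39 tested, with 6 at an unadjusted p under 0.05, beside 5.17% of all circRNAs, and inflammation and prostaglandin rings 0.52 over 26 tested, with 5. NRF2, glutathione and stress rings had a median of 0.72 over 20 tested, with 2. For all circRNAs the median was 0.16.

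Single rings of these lists show the levels behind those medians. The 4-exon Slco1b2 ring novel_circ_0011962, from a hepatocyte uptake transporter, held 1819, 1793 and 3668 CPM in control, 1114, 1014 and 1083 in APAP, and 1303, 928 and 1228 in dmPGE2+APAP. Its controls lay above every treated library. The Gclc ring novel_circ_0014789, from the enzyme that limits glutathione synthesis, held 596, 685 and 458 CPM in control, 874, 713 and 1285 in APAP, and 855, 656 and 671 in dmPGE2+APAP. The Mdm2 ring novel_circ_0000062, from the ligase that degrades p53, held 233, 254 and 0 CPM in control and 294, 612 and 751 in APAP. None of these 3 passed the edgeR test.

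Cell type markers moved with the groups in part. The summed CPM of rings from hepatocyte markers ran from 5944 to 10546 in control. It ran from 4367 to 4647 in APAP and 4763 to 5976 in dmPGE2+APAP, so APAP lay below both other groups. The Slco1b2 ring given above is in this list and alone held 1819, 1793 and 3668 CPM in control and 1114, 1014 and 1083 in APAP. Over the 23 tested rings of the list the median log2 fold change in APAP against control was -0.33. The control sums include the library of lowest depth and are not given without it. Sinusoidal endothelial markers ran from 1808 to 2052, 823 to 2227 and 1490 to 1917, and Kupffer cell and macrophage markers from 0 to 1277, 606 to 1518 and 1060 to 1460, with overlap. Stellate cell and fibroblast markers ran from 0 to 416, 72.2 to 258 and 141 to 257, and cholangiocyte markers from 0 to 231, 72.2 to 230 and 131 to 313. The single neutrophil and lymphocyte ring was read in 1 APAP library only. The part of cell composition in the rings called was not tested.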

How the data were processed

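The deposited table gave 1 line per circRNA. Its counts are whole back-splice read counts that the authors deposited unscaled. Per the submitters' processing notes, HISAT2 and the build GRCm38 (mm10) were used, and the circRNA caller is not given in the sources used here. The table's 9 scaled columns, 1 per library, were not used. The listed exons set the ring length here, since the deposited spliced length was short by 1 base per listed exon in 7094 rings.

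The 4331 circRNAs that reached 5 reads in 3 or more of the 9 libraries were tested. The edgeR 4.0.16 quasi-likelihood test (R 4.3.3) was run with TMM scaling, 1 mean per group, and Benjamini-Hochberg adjustment over all of them at a threshold of 0.05. DESeq2 1.42.0, limma-voom (limma 3.58.1), other filters and scaling, a replicate block and leaving out each library were alternatives. Class values per library were compared by exact permutation. The tests were checked on simulated data. The simulated counts had the same spread for all circRNAs and no library with ring proportions unlike the rest. The check thus does not cover calls that turn on control 3.

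Rings were named by rule: those past the threshold or, up to 10 per comparison, with the smallest p, the 3 most abundant, the highest and lowest circular share, the shortest and longest tested ring of each exon number, the 5 hosts with most rings, and the 3 most abundant tested rings of each list, of which some are given. Members and lists were chosen with earlier results of these data known.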

Additional observations from a re-analysis of the deposited data

How the results depend on the processing

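Rings passing edgeR in APAP against control (4 with all libraries) numbered 7 without TMM scaling, 10 by DESeq2, and 1 each by limma-voom and with at least 10 reads in 3 libraries, and 1 to 6 when 1 library was left out. For dmPGE2+APAP against APAP (1 ring) they numbered 0 by DESeq2, limma-voom and the stricter filter, 4 without a filter, and 0 to 1 with 1 library left out. For dmPGE2+APAP against control (2 rings) they numbered 1 by DESeq2, limma-voom and the stricter filter, 4 without a filter, and 1 to 4 with 1 library left out. All circRNAs passing, 6, 3 and 5 in the same order, numbered 12 in APAP against control and 10 in dmPGE2+APAP against control without TMM scaling, 14, 0 and 1 by DESeq2, 0 and 2 by limma-voom and 9 and 12 without a filter in the comparisons of dmPGE2+APAP with APAP and with control, and 2, 1 and 3 with the stricter filter. With 1 library left out they ranged from 3 to 10, 1 to 3 and 4 to 8. With 1 library left out, the Arid1a log2 fold change ran from -8.89 to 0.56 in APAP and from -4.97 to 0.040 in dmPGE2+APAP against control, both highest values without control 3.

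With the replicate number as a block, 1 ring passed in each comparison, and of all circRNAs 4, 5 and 3. Same-numbered libraries did not deviate together (correlations from -0.036 to 0.023), and libraries of different number gave -0.029 to 0.040. With values near 0 for all pairs, the check cannot tell whether same-numbered libraries share more than a number.

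The APAP minus control difference in percent of reads was 2.77 points for 2 to 5 exons (1.23 to 3.58 with 1 library left out), 2.99 for 2 exons (1.36 to 3.96), 2.10 for 3 (1.07 to 2.66), -1.004 for 4 (-1.17 to -0.80) and -1.32 for 5 (-1.88 to -0.40). As percent of detected circRNAs it was -0.69, 2.27, -0.21 and -1.44 for 2 to 5, 2, 3 and 4 exons, none past the threshold. Over exonic reads 2 to 5 exons gave 0.28. Without the class's top ring it was 1.77 for 3 exons and -0.54 for 4, both no longer past it. By annotated exons 4 exons gave -0.41, and in circRNAs read in the 8 other libraries 5 exons gave -1.79, now past it; both, like matching rings, were chosen after seeing the data.

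The circular share difference between APAP and control, 12.7 points, ran from -6.97 (without control 3) to 22.3. Its 4-to-5-exon step was 7.46 with all usable rings, 0.96 as a median over rings, and -0.99 to 2.08 with 1 library left out. Rings of 2 to 5 against 1 exon gave 7.39 with all usable rings, and against 6 or more exons 3.79 in matching rings. The log2 CPM difference from 1 exon was -0.31 in matching rings. The cause was not tested.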
